A study of Homo sapiens with 3 samples.

Results

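The genes in view encode the NF-kappa-B subunits (NFKB1, NFKB2, REL, RELA and RELB), their inhibitors (NFKBIA, NFKBIB and NFKBIE) and the feedback regulators TNFAIP3 and BIRC3. These 10 genes were listed by name, out of 19866 protein-coding genes of the RefSeq table, so no measured value set a threshold for them, but the set was chosen by gene family with the fold and rank of the NFKB2 VCP interval already known. For each gene, all intervals lying inside it or within 5 kb of it were taken from the peak lists. The cells were HCT116, an established line from a human colorectal tumour, and overexpressed VCP carrying a Flag tag. The VCP protein is an ATPase that pulls ubiquitin-tagged proteins out of larger assemblies. The series holds 3 libraries of these cells, 1 each for an antibody to VCP, an antibody to the Flag tag and the input. All came from chromatin fixed for 10 minutes in 1% formaldehyde and cut with micrococcal nuclease. The labels give neither the vector nor whether the line is 1 clone, and peak lists hold no expression by which the cell line could be checked. There were no replicates, so no difference between the libraries was tested.

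NF-kappa-B factors are dimers that wait in the cytoplasm, held by inhibitor proteins. A stimulus marks the inhibitor with ubiquitin, the proteasome destroys it, and the freed dimer enters the nucleus and binds kappa-B sites. The precursors made from NFKB1 and NFKB2 are also processed by the proteasome, and VCP is known to take part in handling ubiquitinated inhibitor. Many of the genes listed here are themselves NF-kappa-B targets, which makes the pathway a feedback loop.

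Kappa-B motifs stood in upstream sequences of 7 of the 8 genes with a listed start. The 4 sequences shown here are those that both hold a match and overlap a Flag interval described below. Each is the 250 bases before a transcript start (RefSeq, GRCh38.p14), read 5′ to 3′ along the gene, with matches to the kappa-B consensus on either strand in capitals. The NFKB2 stretch, before its second listed start, is chr10:102394328-102394577 on the plus strand. That of TNFAIP3 is chr6:137867009-137867258 on the plus strand. That of BIRC3 is chr11:102317234-102317483 on the plus strand, and that of NFKBIA is chr14:35404750-35404999 on the minus strand.
NFKB2: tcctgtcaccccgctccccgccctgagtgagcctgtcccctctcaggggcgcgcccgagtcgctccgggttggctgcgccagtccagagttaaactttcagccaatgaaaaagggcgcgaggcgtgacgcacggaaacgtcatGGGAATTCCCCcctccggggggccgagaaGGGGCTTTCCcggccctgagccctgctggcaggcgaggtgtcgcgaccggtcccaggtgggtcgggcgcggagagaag
TNFAIP3: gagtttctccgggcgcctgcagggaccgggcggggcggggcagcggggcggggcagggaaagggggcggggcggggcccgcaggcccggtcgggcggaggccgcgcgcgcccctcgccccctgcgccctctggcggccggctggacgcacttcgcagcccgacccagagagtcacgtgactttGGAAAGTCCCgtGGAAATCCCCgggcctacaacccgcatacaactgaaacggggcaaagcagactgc
BIRC3: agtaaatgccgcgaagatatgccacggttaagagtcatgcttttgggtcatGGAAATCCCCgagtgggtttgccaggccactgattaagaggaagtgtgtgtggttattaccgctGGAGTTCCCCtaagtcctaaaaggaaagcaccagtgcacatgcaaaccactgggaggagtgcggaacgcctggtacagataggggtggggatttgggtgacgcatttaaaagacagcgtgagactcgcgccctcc
NFKBIA: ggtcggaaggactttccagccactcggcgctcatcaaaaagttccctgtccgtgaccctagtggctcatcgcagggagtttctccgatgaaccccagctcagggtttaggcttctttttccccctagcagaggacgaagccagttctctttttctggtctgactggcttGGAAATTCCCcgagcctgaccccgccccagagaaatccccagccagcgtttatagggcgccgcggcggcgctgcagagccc

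Of the 10 genes, 2 had a VCP interval (NFKB2 and BIRC3) and 6 had a Flag interval (NFKB2, RELA, NFKBIA, NFKBIB, TNFAIP3 and BIRC3). Among all protein-coding genes, 5.40% had a VCP interval and 20.4% had a Flag interval by the same rule. The exact 95% binomial intervals of the member shares, which cover counting error only, ran from 2.52% to 55.6% for VCP and from 26.2% to 87.8% for Flag. The counts of members and the densities below are a description, since the genes were chosen with the lists known. Their intervals therefore cannot show an excess over all genes. All 8 of these gene and antibody combinations had a summit within 1 kb of an outer gene end, where 2.34% of protein-coding genes had one for VCP and 11.7% for Flag. In all there were 9 intervals, 2 for VCP and 7 for Flag, over 0.380 Mb of sequence. This was 5.26 VCP intervals per Mb (exact Poisson 95% interval 0.637 to 19.0) and 18.4 Flag intervals per Mb (7.40 to 37.9). All protein-coding genes with the same margins held 0.702 and 2.79 per Mb.

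NFKB1, REL, RELB and NFKBIE had no listed interval in either list. NFKB1 (116 kb), REL (50.0 kb) and RELB (36.7 kb) are the longest of the 10 genes, and NFKBIE (7.39 kb) is among the shortest. The lists hold only intervals past the caller's threshold, so weaker signal at these 4 genes was not seen.

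**Figure D1:**
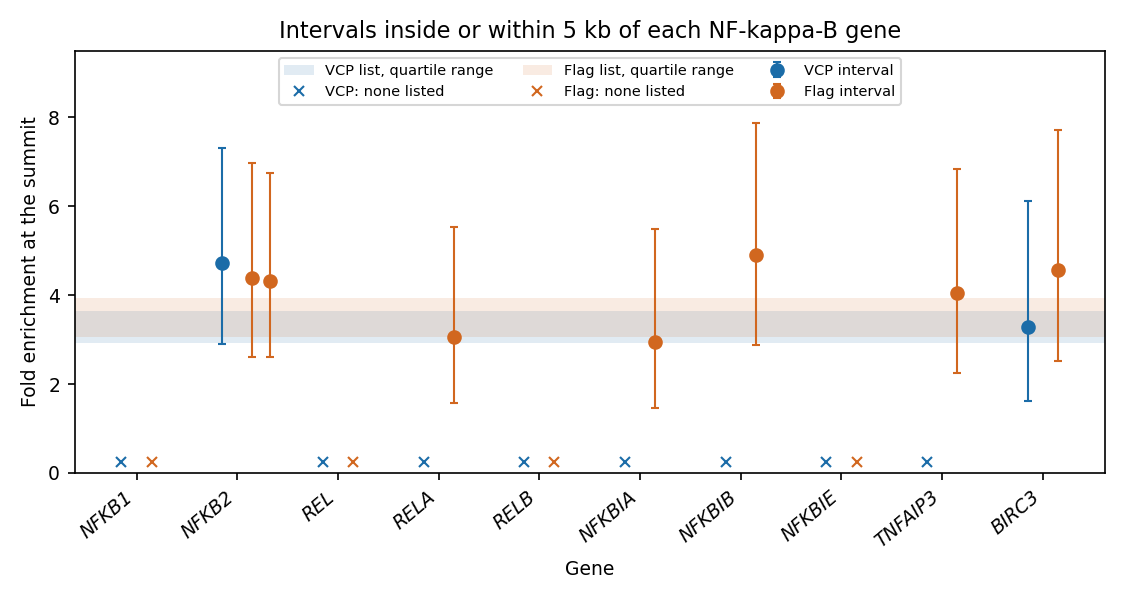
Fold enrichment at the summit (vertical axis) of each interval inside or within 5 kb of the 10 genes (horizontal axis), VCP in blue and Flag in orange. Bars are the exact Poisson 95% intervals of the reads carried to the fold, shaded bands are the quartiles of each whole list, and crosses mark genes with none listed. NFKB2 carries 1 VCP and 2 Flag intervals above both bands, while RELA and NFKBIA sit at or below the Flag band.

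NFKB2, which encodes the p100 precursor of the subunit p52, held the strongest VCP interval of these genes. It spanned chr10:102394115-102394315 (201 bp), with its summit at 102394226, 116 bp downstream of the outer transcript start. Its fold enrichment over the local background was 4.72, its -log10 q was 3.20, and it ranked 19 of 1816 in the VCP list by q. It rested on 18 reads at the summit (exact Poisson 95% interval 10.7 to 28.4) over a local background of 3.02 reads. The VCP list as a whole had a median fold of 3.28 and a median of 10 reads. This interval lay above both, but the genes were chosen with its fold and rank known, so that is no separate result. By fold alone the interval ranked 52.

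A Flag interval covered the same NFKB2 start region and was wider, from 102394104 to 102394661 (558 bp), and 3.25% of Flag intervals were wider still. Its fold was 4.39, with a -log10 q of 3.18 and rank 521 of 5719. There were 16 reads at its summit (9.15 to 26.0) over a background of 2.87. The VCP interval lay wholly within it, yet the summits were 328 bp apart. The Flag summit, at 102394554, lay 24 bp before the second listed start of NFKB2, in the stretch printed above, and the VCP summit lay near the first start. Over the 196 overlapping VCP and Flag pairs of the whole lists, the median distance between summits was 78.5 bp (quartiles 37.8 and 144), and 10 pairs had a larger distance than NFKB2.

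A further Flag interval lay in the body of NFKB2, from 102399354 to 102399900 (547 bp). Its summit at 102399539 was 3834 bp downstream of the nearest listed start and 2990 bp from the gene's end. The fold was 4.31, with 17 reads (9.90 to 27.2) over a background of 3.17, -log10 q 3.28 and rank 497. No VCP interval overlapped it. The summits of the other 8 intervals lay within 24 to 434 bp of a listed start, so this was the single one away from any.

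NFKB2 lies on distal 10q, a segment known to be gained in HCT116, where reads rise with the number of copies. The boundary of the gain was not measured here, and the segment was assumed to start at 100 Mb. From there to the last gene of chromosome 10, VCP intervals numbered 1.51 per Mb (exact Poisson 95% interval 1.12 to 1.99) and Flag intervals 3.05 per Mb (2.49 to 3.70). Elsewhere on chromosomes 1 to 22 and X the densities were 0.599 (0.571 to 0.628) and 1.91 (1.86 to 1.96). Within that, the rest of chromosome 10 had 0.590 (0.449 to 0.761) and 1.66 (1.42 to 1.93). The number of genes per Mb was not compared between these regions, and the cause of the difference in density was not tested. The local background at VCP intervals of the segment had a median of 3.18 reads, against 2.33 elsewhere, and at Flag intervals 2.91 reads, against 2.27. The backgrounds at NFKB2, 2.87 to 3.17, were near those medians, while those of the other members ranged from 1.74 to 2.27. The deposited fold divides by this local background. Taken over the lowest background of each list, the NFKB2 folds were 6.93 for VCP, 5.97 for Flag at the start and 6.32 for Flag in the body. The part of the copy gain in the NFKB2 intervals was not tested.

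RELA encodes p65, the subunit with a transactivation domain in the most common dimer. It had 1 Flag interval, chr11:65663323-65663636 (314 bp), and none for VCP. The fold was 3.06, on 9 reads (4.12 to 17.1) over 2.27, with a -log10 q of 0.458 and rank 4262 of 5719. This was a weak interval of the list. The summit at 65663350 lay 507 bp inside the outer start of RELA and 434 bp before its second listed start. The nearest gene end belonged to the divergent non-coding gene RELA-DT, at 344 bp, so the interval cannot be assigned to RELA alone.

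Among the inhibitors, NFKBIB, which encodes I-kappa-B beta, had the Flag interval with the highest fold of the 10 genes. It spanned chr19:38899972-38900361 (390 bp) with a fold of 4.90 and a -log10 q of 3.68, rank 420. There were 15 reads at the summit (8.40 to 24.7) over 2.27. The summit at 38900025 lay 56 bp after the second listed start. It was also 407 bp from the start of the neighbour SIRT2, a deacetylase gene that points the other way, so the interval lies at a shared start region.

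NFKBIA encodes I-kappa-B alpha, the inhibitor that is rapidly degraded and rapidly made again. Its Flag interval, chr14:35404967-35405156 (190 bp), lay wholly upstream of the gene, 218 bp away at its nearer edge. With a fold of 2.95 on 8 reads (3.45 to 15.8) over 2.05 and a -log10 q of 0.379, it ranked 5097 of 5719. It was the weakest interval of the 9 by fold. The summit at 35404992 was 243 bp before the start, within the printed stretch, of which 33 bases lie in the interval. NFKBIE, which encodes I-kappa-B epsilon, had none.

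TNFAIP3 encodes A20, a ubiquitin-editing enzyme that shuts the pathway off. Its Flag interval, chr6:137867068-137867454 (387 bp), spanned the listed transcript start at 137867259. The fold was 4.04, on 12 reads (6.20 to 21.0) over 2.22, with a -log10 q of 1.87 and rank 1234. The summit at 137867125 lay 134 bp before that start, and 191 of the 250 printed bases lay within the interval. The non-coding gene WAKMAR2 overlaps this region and has its end 1108 bp from the summit. No VCP interval was listed.

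BIRC3 encodes the ubiquitin ligase cIAP2, which acts on receptor complexes upstream of the kinases. It was the other gene with intervals in both lists. The Flag interval, chr11:102317459-102317690 (232 bp), had a fold of 4.57 on 12 reads (6.20 to 21.0) over 1.85, a -log10 q of 2.51 and rank 828. The VCP interval, chr11:102317552-102317968 (417 bp), was weak, with a fold of 3.28 on 8 reads (3.45 to 15.8) over 1.74, a -log10 q of 0.206 and rank 1087 of 1816. In contrast to NFKB2, the summits were 26 bp apart, at 102317595 and 102317621, and lay 111 and 137 bp after the start. The overlap was 139 bp, which was 33.3% of the VCP interval and 59.9% of the Flag interval. The gene LOC124902739 also has an end 352 bp from the Flag summit and 378 bp from the VCP summit. The pair therefore cannot be assigned to BIRC3 alone.

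**Figure D2:**
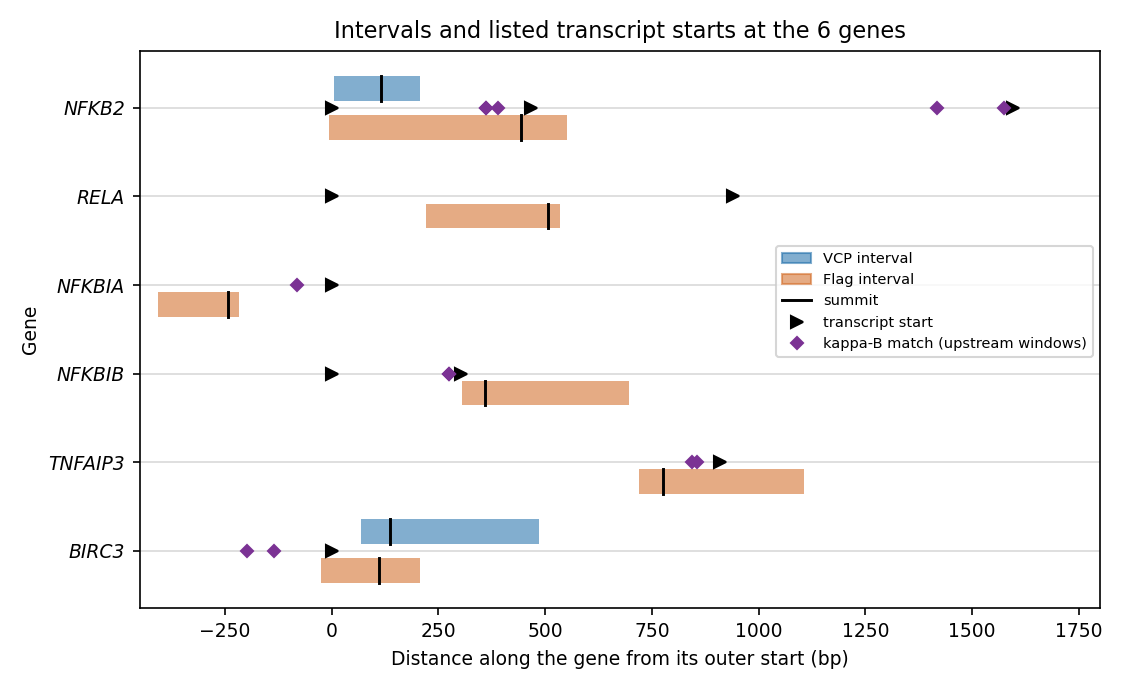
Position of the intervals (bars, VCP blue and Flag orange, black line at the summit) along the 6 genes that have any, in bp from the outer start of each gene. Triangles are transcript starts in the RefSeq promoter table and diamonds are kappa-B matches in the 250 bases before each start. The Flag summit of NFKB2 sits 24 bp before the second start and its VCP summit 116 bp after the first, while both BIRC3 summits follow the start, and the NFKB2 body interval lies off the axis to the right.

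Both VCP intervals of these genes overlapped a Flag interval, against 10.9% of the VCP list (exact 95% interval 9.47 to 12.4). Of the 7 Flag intervals, 2 overlapped a VCP interval, against 3.44% of the Flag list (2.98 to 3.95). Overlapping VCP and Flag intervals were found at 1.17% of protein-coding genes by the same margins. The first share rests on 2 intervals. At a q of at most 0.05, NFKB2 alone kept a VCP interval, where 0.534% of protein-coding genes had one. At that threshold NFKB2, NFKBIB, TNFAIP3 and BIRC3 kept a Flag interval, where 9.13% of genes had one.

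The reads behind the 9 summits ranged from 8 to 18, and their Poisson intervals all overlapped. Their backgrounds differ, so overlap of the read intervals does not settle the order of the genes by strength, which was not tested. The 7 Flag folds had a median of 4.31, against 3.49 for the Flag list, and 5 of them were above the upper quartile of that list.

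**Figure D3:**
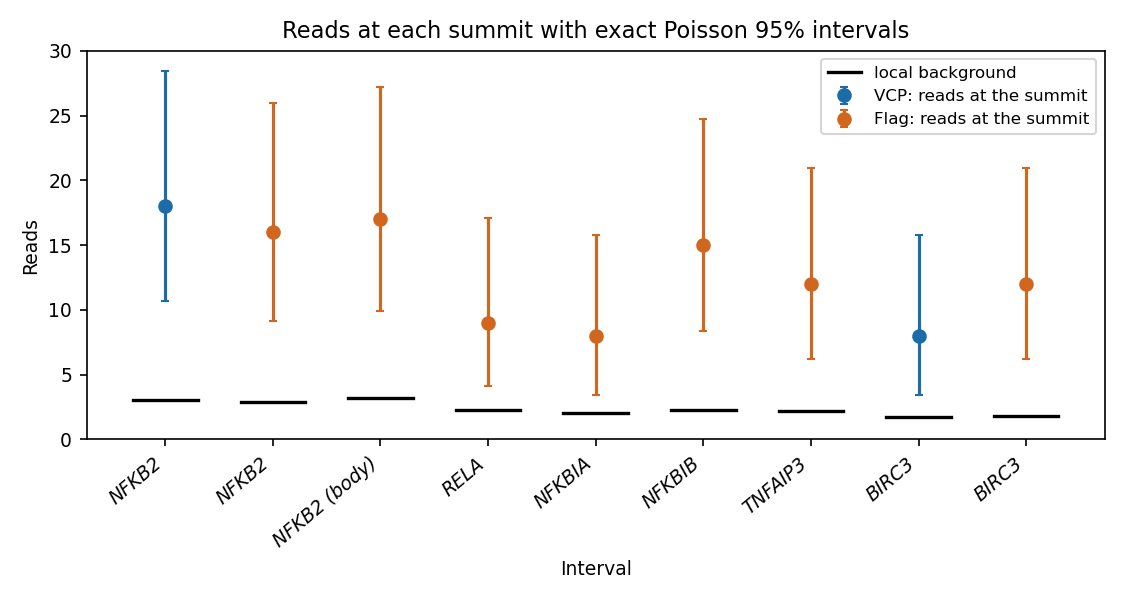
Reads at the summit of each of the 9 intervals (points, VCP blue and Flag orange) with exact Poisson 95% intervals, and the local background in reads (black line). The counts run from 8 to 18 and their intervals overlap, and the backgrounds of the NFKB2 intervals, 2.87 to 3.17, are above those of the other genes.

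The members were also compared in the letters before their starts. The promoter table lists 8 of the 10 genes, with 13 starts, and not RELB or NFKBIE. The kappa-B consensus was found, on either strand and with overlapping matches allowed, before 8 of these 13 starts, in 7 of the 8 genes. Of all 35116 windows of the table, 5.21% held it. RELA was the gene without a match before either start. NFKB1 had GGGAATTTCC 49 bp before its first start, and REL had GGGAAATTCC 47 bp before its start, although neither gene had a listed interval. NFKBIB had GGGAATTTCC 28 bp before its second start, just outside its Flag interval, which begins 3 bp after that start.

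Matches fell inside a Flag interval before the second start of NFKB2 and before the start of TNFAIP3. At NFKB2 a GGGAATTCCC match begins 107 bp and a GGGGCTTTCC match 78 bp before the second start, 83 and 54 bp from the Flag summit. Before the third start of NFKB2, GGGGCTTCCC at 176 bp and GGGACTTTCC at 21 bp lay outside any listed interval, 975 and 1130 bp from the nearest Flag summit. At TNFAIP3 the matches GGAAAGTCCC and GGAAATCCCC begin 67 and 55 bp before the start, 67 and 79 bp from the summit. Those of BIRC3, 199 and 135 bp before the start, and that of NFKBIA, 81 bp before the start, also lay outside the intervals. None of the matches lay inside a VCP interval. The windows of 4 of the 8 starts with a match overlapped a Flag interval by at least 1 bp, as did 1 of the 5 without a match. Over all windows of the table these shares were 6.46% and 5.40%. At BIRC3 and NFKBIA the overlap was of 25 and 33 bases at the edge of the window. It was of 191 bases at TNFAIP3 and of all 250 before the second start of NFKB2. The 1 window without a match was that before the first start of NFKB2, with 6 bases in the same Flag interval. That interval is thus counted on both sides. A match is a run of letters, not a measured site of binding.

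Other promoter motifs, searched on both strands of the same windows, were spread differently. The GC box GGGCGG stood before 10 of the 13 starts, against 42.6% of all windows, and TNFAIP3 had 6 of them. CCAAT stood before 3, against 32.0%, and TATAAA before 1, that of NFKBIA, against 10.7%. The ETS core CCGGAAG was found before 0 of the 13, against 8.52%. The GC content of the windows ran from 48.4% before the outer start of RELA to 79.6% before that of REL, where the median of all windows was 58%.

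In the wider pathway, 91 other genes of 5 lists were taken, written with earlier results on these data known. A VCP interval was listed at 2 of them (2.20%) and a Flag interval at 26 (28.6%), against 5.40% and 20.4% of all protein-coding genes. The VCP ones were the target genes CFLAR, an inhibitor of caspase-8 activation, and IRF1, a transcription factor. Each had a fold of 3.65 on 9 reads, and neither overlapped a Flag interval. Kinases and adaptors had Flag intervals at 7 of 23 genes, receptors and ligands at 4 of 18, and ubiquitin enzymes and their partners at 6 of 20. Nuclear cofactors had them at 3 of 8 genes and target genes at 6 of 26. TNF, LTB, NFKBIZ and TNIP1 each stand in 2 lists and count in both, so the list sizes add to more than 91.

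BCL3, a nuclear inhibitor-like protein that partners p50 and p52, had the pathway's Flag interval with the highest -log10 q (5.94, fold 5.27, 21 reads), in its gene body. BCL2L1, an antiapoptotic target, had 1 at a -log10 q of 5.25 (fold 5.60, 17 reads), also in its body. The interval counted for SOD2, a mitochondrial superoxide dismutase, had a -log10 q of 5.03 (fold 4.75, 21 reads) and lay 245 bp from the outer start of WTAP, a neighbouring gene. RNF31, the catalytic subunit of the linear ubiquitin ligase complex, had a fold of 5.27 on 14 reads. Its summit lay 745 bp from the start or end of the gene, whichever was nearer. None of these 4 intervals overlapped a VCP interval.

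**Figure D4:**
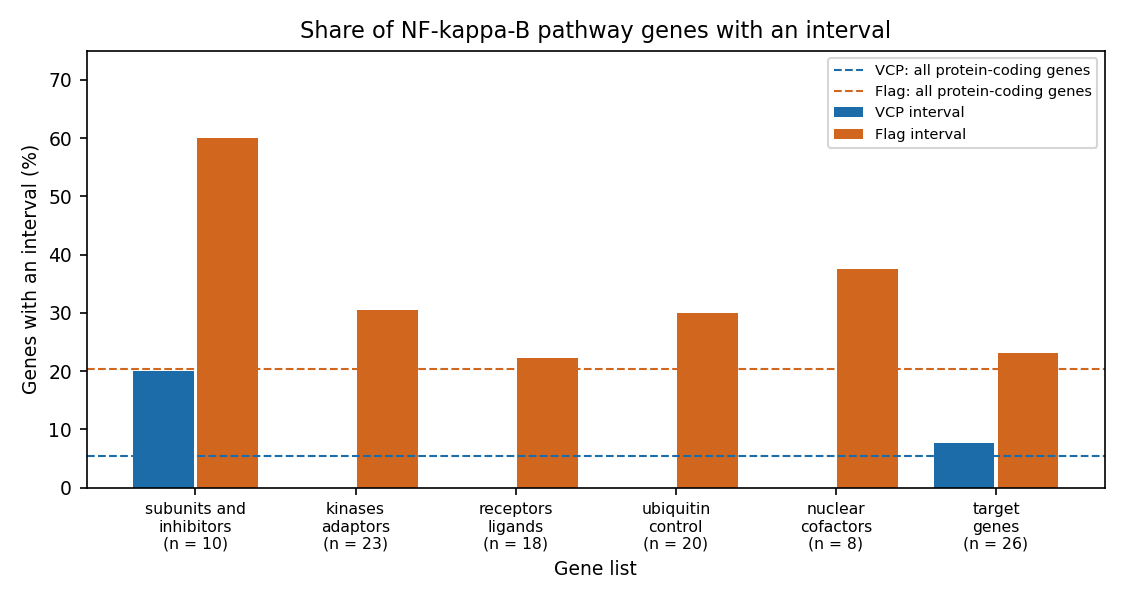
Share of genes with a VCP (blue) or Flag (orange) interval inside or within 5 kb, in percent, for the 10 subunit, inhibitor and feedback genes and 5 other pathway lists, with the share over all protein-coding genes as dashed lines. The 10 genes stand at 20% and 60%, and 4 of the other lists have no VCP interval.

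Intervals just outside the margin of 5 kb lay at neighbours. The nearest to BIRC3 was a Flag interval 7.52 kb away (fold 2.89, 9 reads), 239 bp from the outer start of BIRC2, which encodes the related ligase cIAP1. The nearest to NFKBIE was an overlapping pair at the chaperone gene HSP90AB1, 11.5 kb away for VCP (fold 3.62) and 11.3 kb away for Flag (fold 3.59). For the other genes the nearest interval beyond the margin was farther off, for RELB 38.1 kb in the VCP list and for NFKB1 120 kb in the Flag list.

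By the folds of their overlapping pairs in the 2 libraries, the genes most like NFKB2 were LSM5 (VCP 4.64, Flag 4.47), SNX16 (4.67 and 4.50) and ZNF165 (4.89 and 4.28), of 232 genes with such a pair. BIRC3 was matched exactly by 5 genes, among them COPS2, DLX2 and GALK2, of which COPS2 and GALK2 share 1 pair. Such ties arise because its folds are those of 8 and 12 reads over the lowest background of each list.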

How the data were processed

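The submitters' processing notes name the build hg38 and the tools MACS2 2.1.0, Bowtie 1.1.2, Trimmomatic 0.33 and bcl2fastq 2.17, without their settings. The deposited lists give per interval a fold enrichment (a ratio over local background), -log10 p, -log10 q and a score, which equals 10 times -log10 p rounded down and was not used. The lists hold 1816 VCP and 5719 Flag intervals, called per library. The lowest -log10 p was 3.00 in both, so the threshold appears to be on the unadjusted p. Median -log10 q was 0.381 and 0.974.

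Reads at each summit were recovered as the whole number whose Poisson tail, with the background given by the fold and a pseudocount of 1 read, matched the deposited -log10 p within 0.001. All intervals matched. Reads have exact Poisson and shares exact binomial 95% intervals, which cover counting error only. Coordinates are 1-based. Gene ends came from RefSeq (GRCh38.p14), 58961 of 59792 rows being kept, and starts with strand from its promoter table. Of the 10 genes, 10 matched by symbol. Lists overlapped by at least 1 bp. Rank is by -log10 q. Python 3.11.15, pandas 2.3.3 and scipy 1.17.1 were used, and the code was tested on simulated intervals. Input reads were not used directly here. The caller's settings are not given, so the local background in the lists may itself have been drawn from the input.

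The members and gene lists were chosen with earlier results of these data known. Named genes were all 10 members, up to 4 other pathway genes per list by -log10 q, and for members in both lists the 3 genes nearest in fold. Alternatives were other margins, a q threshold, other overlap rules, rank by fold, the lowest background and another segment start.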

Additional observations from a re-analysis of the deposited data

How the results depend on the processing

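With margins of 1 kb or 10 kb, or summits within 1 kb of a gene end, the members with an interval numbered 2 for VCP and 6 for Flag, as with 5 kb. At a q of at most 0.05 the members with a VCP interval fell to 1, those with a Flag interval to 4, and the shared intervals to 1. Requiring summits within 200 bp also left 1 shared interval, since the NFKB2 summits were 328 bp apart, and overlap of 50% of the shorter interval left 2. The other pathway genes numbered 1 (VCP) and 14 (Flag) when only gene ends counted, and 0 and 10 at a q of at most 0.05. These are counts of 91 genes, where all protein-coding genes gave 2.34% and 11.7% at gene ends and 0.534% and 9.13% at that q. Ranked by fold in place of -log10 q, 3 of the 9 intervals nearly kept their place. RELA went from the top 74.5% to 73.9%, NFKBIB from 7.34% to 7.24% and TNFAIP3 from 21.6% to 22.2%. The other 6 shifted by more. NFKB2 in the VCP list went from the top 1.05% to 2.86%, and its Flag intervals from 9.11% to 13.5% and from 8.69% to 14.6%. NFKBIA went from 89.1% to 81.3%, and BIRC3 from 59.9% to 43.7% for VCP and from 14.5% to 10.1% for Flag. The counting intervals of the reads do not apply to a rank. All 9 folds over the lowest background stayed within the counting interval of the deposited fold. Dividing by the lowest background can only raise a fold or leave it, and it left both BIRC3 folds unchanged. With the assumed start of the 10q segment at 90 Mb, densities were 1.30 per Mb for VCP and 2.92 for Flag. No paired analysis was possible because each antibody had 1 library. Depth limits these values to 8 to 18 reads per summit.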

Other observations

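Across all genes of the promoter table, windows with a kappa-B match overlapped a Flag interval in 118 of 1828 cases (6.46%, exact 95% interval 5.37 to 7.68), and windows without one in 1799 of 33288 (5.40%, 5.16 to 5.65). For the VCP list the counts were 19 (1.04%, 0.627 to 1.62) and 278 (0.835%, 0.740 to 0.939). Windows of 1 gene can overlap, so these intervals are too narrow, and no test was made.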
